A study of Mus musculus with 8 samples.

Results

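Glycolysis in subcutaneous fat of mice was followed through 10 genes that encode isozymes of 5 of its enzymes, the hexokinases Hk1 and Hk2, the phosphofructokinases Pfkl, Pfkm and Pfkp, the aldolase Aldoa, the enolases Eno1 and Eno3 and the lactate dehydrogenase subunits Ldha and Ldhb. They were taken by gene symbol from a table of 18022 genes, all 10 were found, and all 10 were among the 14556 genes with enough reads to be tested. Poly(A) RNA was sequenced from 4 mice labelled Pkd1adipo delta/delta (KO), which carry a deletion of Pkd1 in adipocytes, and from 4 floxed controls labelled Pkd1(flox/flox) (WT). By Pkd1 the labels mean protein kinase D1, encoded by Prkd1. Every library came from a mouse of its own, back-crossed 4x to C57BL/6J, and KO3, for example, is replicate 3 of those labelled KO. The sources used here do not give the Cre driver, the age, the sex or the diet of the mice. A deletion confined to adipocytes leaves the gene in the other cells of the fat pad.

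Glycolysis splits glucose into pyruvate, and several of its steps can be run by enzymes from different genes. Hexokinase traps glucose in the cell as glucose 6-phosphate, phosphofructokinase commits the sugar to breakdown, aldolase cleaves it, enolase makes phosphoenolpyruvate, and lactate dehydrogenase interconverts pyruvate and lactate. Skeletal muscle relies on Eno3, the beta subunit of enolase, and on Pfkm, the muscle subunit of phosphofructokinase. Hk2 is the insulin-responsive hexokinase of muscle and fat. Aldoa and Ldha are the muscle types by name but are found in most tissues. Hk1, Pfkl, Pfkp, Eno1 and Ldhb are found widely, with Hk1 strong in brain, Pfkl in liver, Pfkp in platelets and Ldhb in heart.

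To show how far reads of paralogs can be told apart, the coding stretch where Pfkm and Pfkl are most alike is printed, with its match in Pfkp. In GRCm38 (GENCODE M21) it lies in a single coding exon of each gene, at chr15:98121256-98121315 on the plus strand for Pfkm, at chr10:78000723-78000782 on the minus strand for Pfkl and at chr13:6620933-6620992 on the minus strand for Pfkp. Capitals mark the 10 positions at which the 60 bases are not the same in all 3 genes.
Pfkm: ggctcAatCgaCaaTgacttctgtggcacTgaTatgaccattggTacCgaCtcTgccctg
Pfkl: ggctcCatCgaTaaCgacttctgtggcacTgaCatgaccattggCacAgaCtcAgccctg
Pfkp: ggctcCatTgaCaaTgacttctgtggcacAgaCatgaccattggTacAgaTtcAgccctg
The closest 60-base stretches of Eno3 and Eno1 differed at 5 positions, with a longest shared run of 20 bases. Among 50-base strings of the annotated transcripts, compared on the transcript strand only, Eno3, Pfkp, Hk1 and Hk2 shared none with another gene. Opposite-strand genes overlap Hk1 (Hk1os, between 2 and 6 reads), Pfkp (Pitrm1, between 97 and 135 reads) and Aldoa (Fam57b, between 18 and 59 reads). Whether reads were shared with these genes was not tested. Pfkm shared 8.83% of its strings, with a gene that is not among the rows of the count table. Eno1 shared 26% and Ldhb 21%, so which gene such reads belong to is uncertain.

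The upstream sequence of both restricted muscle isozymes and of Ldha is shown because Eno3 and Pfkm had the widest differences between the labels and Ldha is a textbook target of hypoxia-inducible factor. The 250 bases before the start site were taken from RefSeq (GRCm38.p6) at chr11:70656926-70657175 for Eno3, at chr15:98108221-98108470 for 1 of the starts of Pfkm and at chr7:46845554-46845803 for 1 of the starts of Ldha, all on the plus strand. Capitals mark CANNTG, the E-box read by basic helix-loop-helix factors such as MyoD, and ACGTG, the core of the hypoxia response element, on either strand. The motifs overlap where CACGTG holds both.
Eno3: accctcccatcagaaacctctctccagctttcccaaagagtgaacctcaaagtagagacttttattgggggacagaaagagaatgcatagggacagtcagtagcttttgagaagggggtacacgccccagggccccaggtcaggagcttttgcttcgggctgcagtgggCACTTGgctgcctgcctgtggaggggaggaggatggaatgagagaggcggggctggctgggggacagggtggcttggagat
Pfkm: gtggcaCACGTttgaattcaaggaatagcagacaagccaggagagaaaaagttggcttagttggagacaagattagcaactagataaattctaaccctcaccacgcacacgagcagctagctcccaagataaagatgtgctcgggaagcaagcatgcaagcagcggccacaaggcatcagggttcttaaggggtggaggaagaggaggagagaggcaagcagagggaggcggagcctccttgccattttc
Ldha: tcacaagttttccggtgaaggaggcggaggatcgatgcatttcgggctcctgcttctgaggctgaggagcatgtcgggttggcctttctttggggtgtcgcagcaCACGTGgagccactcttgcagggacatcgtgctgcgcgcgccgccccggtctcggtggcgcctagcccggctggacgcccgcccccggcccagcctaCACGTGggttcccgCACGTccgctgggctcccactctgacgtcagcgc
The Eno3 window held 1 E-box and 0 matches to ACGTG. The printed Pfkm window held 0 E-boxes and 1 match to ACGTG, and the printed Ldha window held 2 E-boxes and 5 matches to ACGTG counted over both strands. Windows at the other starts of Pfkm held 3, 1 and 1 E-boxes and 2, 0 and 0 matches to ACGTG. The other Ldha window held 2 E-boxes and 0 matches to ACGTG. RefSeq gave 19 windows for the 10 genes. ACGTG was in 6 of the 19, from Hk2, Pfkm, Aldoa and Ldha, against 16.6% of 32851 windows of all genes. An E-box was in 13 of the 19, against 66.2% of all windows, and the MyoD-type CAGCTG was in 0 of the 19, against 13% of all windows. Some windows of the same gene overlap. The ACGTG and the E-box in 2 overlapping windows of Aldoa are the same sites, counted in both windows. A match describes the letters and no binding was measured.

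The 8 libraries held between 2617755 and 2873457 reads. Prkd1 had 71, 108, 84 and 94 reads in KO1 to KO4, against 88, 72, 94 and 73 reads in WT1 to WT4, a log2 fold change of 0.06 ± 0.15 (SE), so the counts of whole fat do not show the deletion and the labels could not be checked with them. A KO library below means a library labelled KO. Adipocyte markers summed to between 14250 and 18260 CPM (counts-per-million, scaled by TMM) in KO libraries and to between 14430 and 17030 CPM in WT libraries. Skeletal muscle markers, a list of 20 genes without a glycolytic enzyme, were also present. They summed to 3573, 2251, 474 and 4082 CPM in KO1 to KO4, against 444.1, 243.2, 642.6 and 150.3 CPM in WT1 to WT4. The muscle sum of KO3 lay inside the WT range and those of the other KO libraries lay above it. In KO3, 17 of the 20 markers were within the WT range and 3 were above it, and 4 of the 20 had 0 reads in at least 1 library. The sum of the lymphoid markers did not overlap between the labels, at 47.09 to 66.32 CPM in KO libraries and 69.31 to 135.4 CPM in WT libraries. Taken singly, 2 of the 8 lymphoid genes did not overlap, beside 1.39% of all genes tested without overlap and lower in KO. Only 1 of the 8 had enough reads to be tested. The part of lymphoid cells in the values below was not tested.

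Read per kilobase of the principal transcript, the isozymes of this fat spanned a wide range of levels. Aldoa led with 428 ± 87.3 CPM per kb (SD, n = 4) in KO libraries and 394 ± 65.3 CPM per kb in WT libraries, followed by Ldha with 220 ± 38.3 CPM per kb in KO and 231 ± 27.5 CPM per kb in WT. Eno1, without the reads of its near copies, came next, at 55.3 ± 5.68 CPM per kb in KO and 64.6 ± 3.78 CPM per kb in WT. In both labels the ranges of Aldoa, Ldha and Eno1 did not touch each other. Below Eno1 the WT order was Hk2, Pfkl, Pfkp, Ldhb, Hk1, Pfkm and Eno3, from 24.1 ± 2.91 CPM per kb for Hk2 to 6.22 ± 1.88 CPM per kb for Eno3, and each neighbour in that order overlapped the next in its range. Eno3 stood in the fourth place among KO libraries, at 31.2 ± 16.7 CPM per kb, and in the last place among WT libraries. Its KO level overlapped that of Hk2, 24.5 ± 6.58 CPM per kb, and the KO ranges from Eno3 down overlapped from neighbour to neighbour. With the length of all annotated exons in place of the principal transcript, Aldoa and Ldha stayed on top and the order below them shifted.

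**Figure D1:**
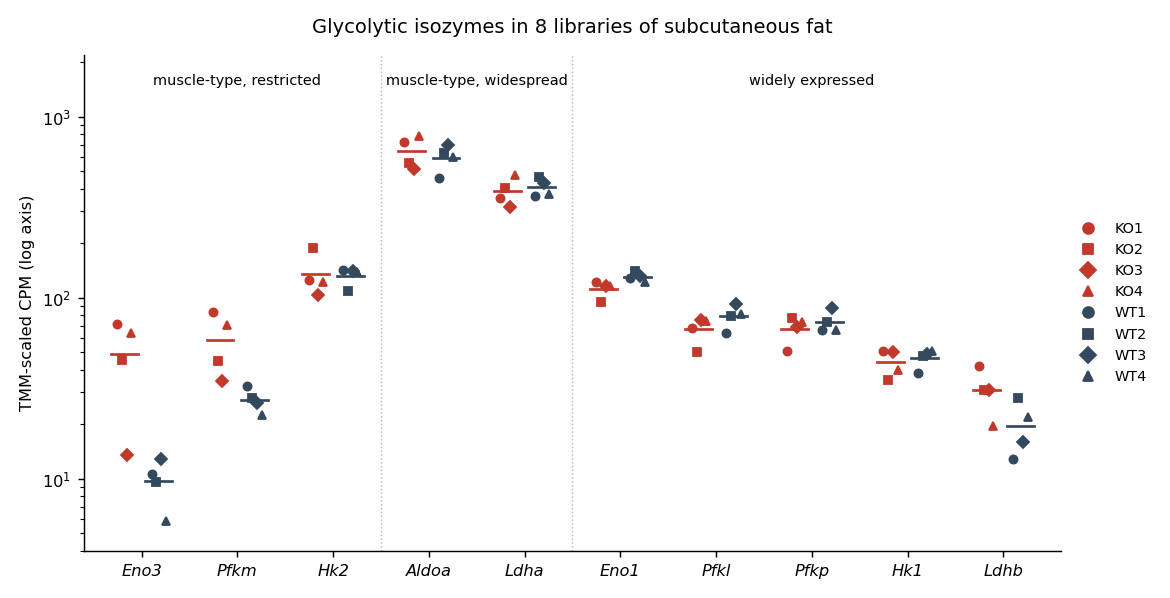
TMM-scaled CPM of the 10 isozymes in each library, on a log axis, with KO left of WT, a point for each mouse and a line for the mean of a label (n = 4). Eno3 and Pfkm are higher in every KO library than in any WT library, and KO3 lies next to the WT libraries in both.

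Eno3, the muscle enolase, differed most between the labels. It had 196, 132, 38 and 180 reads in KO1 to KO4, against 29, 24, 36 and 16 reads in WT1 to WT4. Scaled, this was 72.1, 45.3, 13.5 and 64.2 CPM in KO1 to KO4, against 10.6, 9.55, 12.9 and 5.84 CPM in WT1 to WT4. All 4 KO values were above the highest WT value, but KO3 exceeded WT3 by little, while KO1, KO2 and KO4 stood well apart. The mean was 48.8 ± 26.1 CPM in KO and 9.72 ± 2.94 CPM in WT (SD, n = 4 each), a log2 fold change of 2.32 ± 0.53 (SE; 95% interval 1.09 to 3.55), or 4.99-fold. With edgeR's quasi-likelihood test and Benjamini-Hochberg adjustment over all genes, the p of 0.00265 became an adjusted p of 0.905. Without KO3 the log2 fold change was 2.63 with an adjusted p of 0.000299 by the same test, and Eno3 then passed. With KO3 as the only KO library it was 0.47, and with the log2 muscle marker sum as a covariate it was 0.32. The KO and WT libraries that were high in Eno3 were those high in muscle markers, with KO1, KO4 and KO2 on top in both and WT4 at the bottom of both. The muscle sums of KO1, KO2 and KO4 were above those of every WT library. The covariate thus largely follows the label, and a fit with it cannot cleanly separate them. The part of muscle RNA in the Eno3 difference was not tested. In RNA from whole tissue, more cells of a type and more RNA per cell cannot be told apart.

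Pfkm, the muscle phosphofructokinase, showed the same order of labels with a smaller difference. Its reads numbered 228, 130, 98 and 198 in KO1 to KO4, against 89, 70, 73 and 62 in WT1 to WT4. This gave 83.9, 44.6, 34.8 and 70.6 CPM in KO1 to KO4, against 32.7, 27.9, 26.1 and 22.6 CPM in WT1 to WT4. The lowest KO library, again KO3, was just above the highest WT library, so the labels did not overlap. Means were 58.5 ± 22.7 CPM in KO and 27.3 ± 4.18 CPM in WT, a log2 fold change of 1.10 ± 0.26 (95% interval 0.53 to 1.66), or 2.14-fold, with an edgeR quasi-likelihood p of 0.00126 and an adjusted p of 0.905. Without KO3 the log2 fold change was 1.28 with an adjusted p of 0.0192. It was 0.35 with KO3 as the only KO library and 0.23 with the muscle marker sum as a covariate. Senp1, a SUMO protease gene that overlaps Pfkm and could share reads with it in these libraries without strand, had between 45 and 60 reads and a log2 fold change of 0.14 ± 0.15.

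Hk2 is the third isozyme tied to muscle, and its values were in another order. It had 126, 187, 104 and 123 CPM in KO1 to KO4, against 142, 109, 140 and 139 CPM in WT1 to WT4. KO2 was the highest of all 8 libraries and KO3 the lowest, so the KO values enclosed the WT values. The log2 fold change was 0.03 ± 0.17 (95% interval -0.34 to 0.39), and it was -0.36 with KO3 as the only KO library and -0.22 with the muscle marker sum as a covariate. KO1 and KO4, which had the highest muscle sums, stood at 126 and 123 CPM. Which cells of the fat pad the Hk2 reads came from was not tested.

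**Figure D2:**
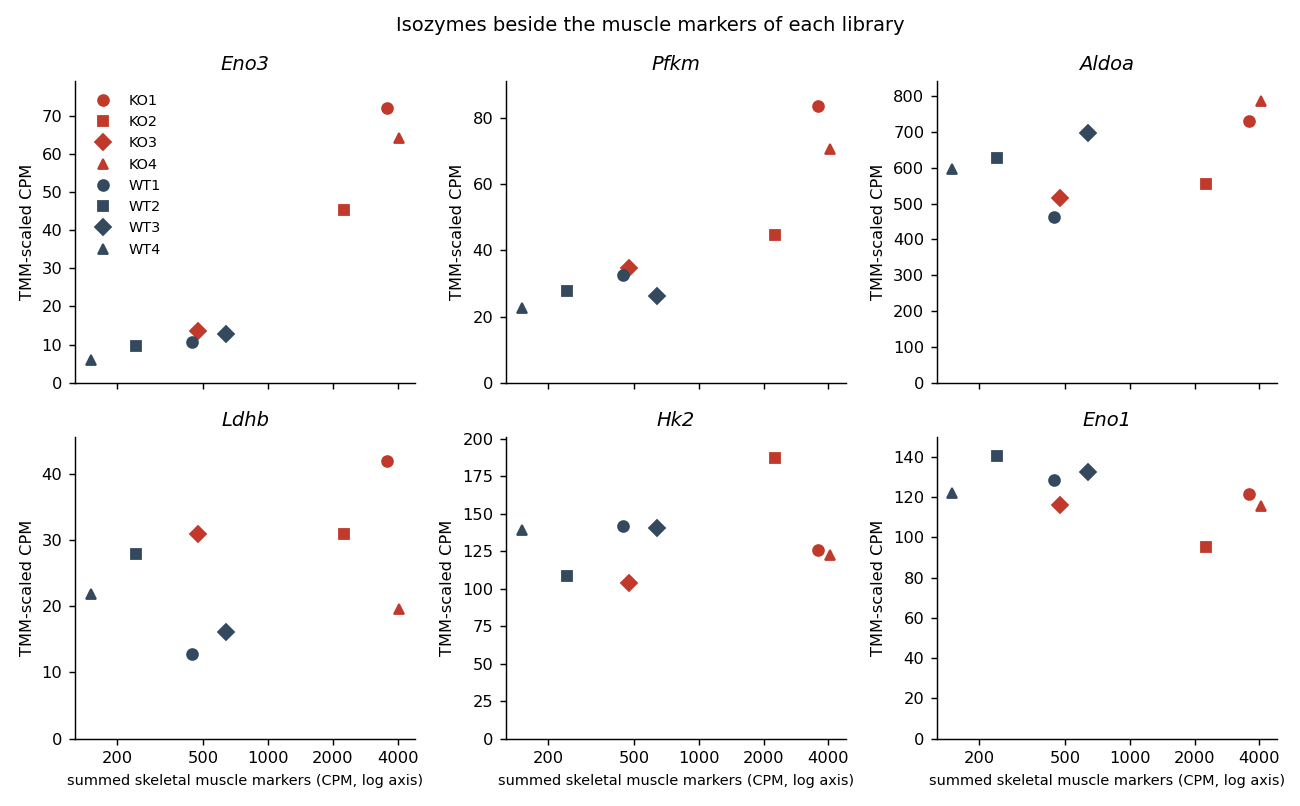
TMM-scaled CPM of 6 isozymes (linear axis from 0) against the summed CPM of 20 skeletal muscle markers (log axis) in each library, with a symbol for each mouse and a colour for each label. Eno3, Pfkm and Aldoa are highest in KO1 and KO4, whose muscle sums are 3573 and 4082 CPM, and Hk2 and Eno1 show no such order.

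The muscle types by name that most tissues carry, Aldoa and Ldha, differed little. Aldoa had 729, 554, 514 and 786 CPM in KO1 to KO4, against 461, 627, 696 and 597 CPM in WT1 to WT4, with KO1 and KO4 above every WT library and KO2 and KO3 inside the WT range. Its log2 fold change was 0.12 ± 0.17 (95% interval -0.25 to 0.49). It was -0.21 with KO3 as the only KO library and -0.24 with the muscle marker sum as a covariate. Ldha had 356, 405, 318 and 475 CPM in KO1 to KO4, against 363, 467, 430 and 375 CPM in WT1 to WT4. The ranges of Ldha overlapped broadly, and its log2 fold change was -0.07 ± 0.15 (95% interval -0.39 to 0.25).

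The widely expressed partners Eno1, Pfkl, Pfkp and Hk1 had log2 fold changes slightly below 0, with intervals that include 0. Eno1, the alpha subunit of enolase, had 122, 95.4, 116 and 116 CPM in KO1 to KO4, against 128, 140, 133 and 122 CPM in WT1 to WT4. Every KO value was below the lowest WT value, though KO1 and WT4 were nearly equal. The log2 fold change was -0.22 ± 0.12 (95% interval -0.47 to 0.03), with an edgeR quasi-likelihood p of 0.0768 and an adjusted p of 0.998. Pfkl had between 50.5 and 75.4 CPM in KO libraries and between 64.2 and 92.9 CPM in WT libraries, a log2 fold change of -0.24 ± 0.15 (95% interval -0.57 to 0.08). Pfkp, at -0.12 ± 0.15, and Hk1, at -0.08 ± 0.15, were nearer to 0 in log2 fold change. Pfkl, Pfkp and Hk1 overlapped between the labels.

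Ldhb, the heart subunit of lactate dehydrogenase, leaned the other way. It had 114, 90, 87 and 55 reads in KO1 to KO4, against 35, 70, 45 and 60 reads in WT1 to WT4. In CPM it stood at 41.9, 30.9, 30.9 and 19.6 in KO1 to KO4, against 12.8, 27.9, 16.1 and 21.9 in WT1 to WT4, so 3 of 4 KO libraries were above every WT library and KO4 was inside the WT range. KO4, with the highest muscle sum, had the lowest Ldhb of the KO libraries, and KO1, with the next highest muscle sum, had the highest Ldhb of all 8. The log2 fold change was 0.65 ± 0.26 (95% interval 0.09 to 1.22), with an edgeR quasi-likelihood p of 0.0273 and an adjusted p of 0.998. It was 0.66 with KO3 as the only KO library and 0.96 with the muscle marker sum as a covariate. Gm5514, a near copy that holds much of the shared Ldhb sequence, had between 11 and 43 reads and a log2 fold change of 0.38 ± 0.39.

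**Figure D3:**
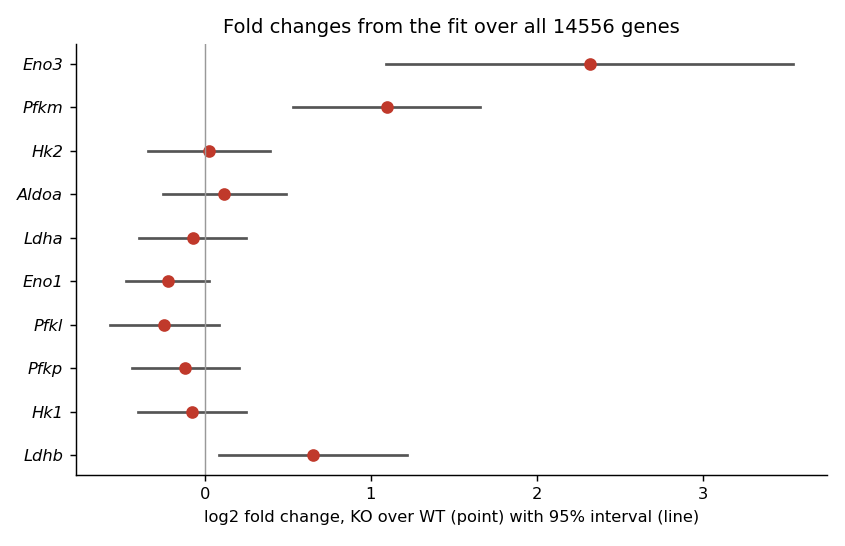
Log2 fold change, KO over WT, of each isozyme (point) with its 95% interval (line) from the quasi-likelihood fit over 14556 genes, with the restricted muscle isozymes at the top. The intervals of Eno3, Pfkm and Ldhb lie above 0 and those of the other 7 genes include 0, while 0 of the 10 passed after adjustment over all genes.

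Over the 10 isozymes, edgeR's quasi-likelihood test called 0 at an adjusted p below 0.05, where it also called 0 of 14556 genes (0%), and limma-voom called 0 genes. At an unadjusted p below 0.05 there were 3 of the 10 (Eno3, Pfkm and Ldhb), against 4.49% of all genes tested. DESeq2 called 2 of the 10, Eno3 and Pfkm, against 0.247% of all genes in either direction. Without KO3 the quasi-likelihood test called the same 2 genes, against 0.336% of all genes tested. Labels without overlap were seen for 2 of the 10 with KO higher, against 1.53% of all genes, and for 1 of the 10 with KO lower, against 1.39%. The log2 fold changes were positive for 5 and negative for 5, with a median of -0.02, beside 0.00041 over all genes tested. In the authors' deposited table Eno3 had a log2 fold change of 2.31 with an adjusted p of 1.16e-17, and Pfkm 1.09 with an adjusted p of 0.000105. The authors' deposited table holds Ldhb at an adjusted p of 0.226 and the other 7 at 1, and 2.42% of its genes were below 0.05.

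Setting each muscle-type isozyme against its widely expressed partner in the same library takes the library scaling out. The log2 ratio of Eno3 to Eno1 reads was -0.75, -1.07, -3.08 and -0.85 in KO1 to KO4, against -3.57, -3.85, -3.35 and -4.35 in WT1 to WT4. KO1, KO2 and KO4 lay together, far above the WT libraries, and KO3 lay just above them. The ratio was -1.44 ± 1.11 in KO and -3.78 ± 0.43 in WT (SD, n = 4 each), a difference of 2.34 ± 0.59 (SE) with a two-sided exact permutation p of 0.0286, the smallest that 4 against 4 can give, and 0.114 after Benjamini-Hochberg adjustment over the 4 ratios. The exact permutation p was 0.0571 with any 1 of the WT libraries left out, and with KO3 as the only KO library, which leaves too few libraries for a test, the difference was 0.695. Counted as a share of Eno3 and Eno1 reads, Eno3 made up 28.9 ± 12.5% in KO and 6.86 ± 1.84% in WT. This share leaves out the near copies of Eno1 and would be lower with their reads added to Eno1. Eno1 itself made up between 25.6% and 32.4% of the reads of itself and those copies. With the reads of Gm5506, a near copy, added to Eno1, the ratio difference was 2.29 (exact permutation p of 0.0286). In KO3 the Eno3 share was 10.4%, with an exact 95% binomial interval of 7.49 to 14.1% that covers counting error only.

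For phosphofructokinase the log2 ratio of Pfkm to the sum of Pfkl and Pfkp was -0.51, -1.52, -2.04 and -1.06 in KO1 to KO4, against -1.99, -2.45, -2.79 and -2.69 in WT1 to WT4. KO3 was just below WT1, so the labels overlapped. The difference was 1.20 ± 0.37, with an exact permutation p of 0.0571 (adjusted 0.114), and it was 0.438 with KO3 as the only KO library. Pfkm made up 29.7 ± 9.33% of the reads of the 3 genes in KO and 15.3 ± 3.33% in WT. Without KO3 the exact permutation p of this ratio was 0.0286, the smallest that 3 against 4 can give.

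**Figure D4:**
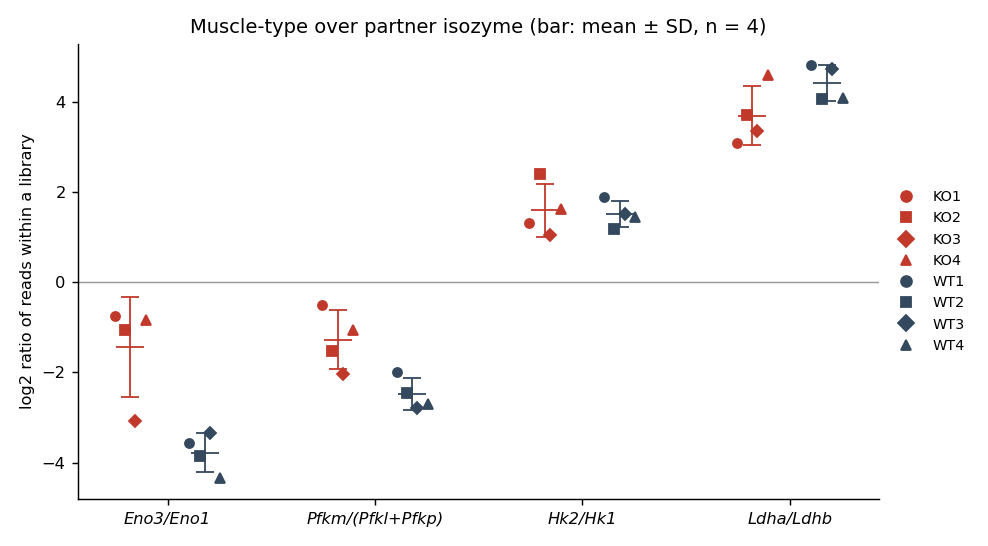
Log2 ratio of the reads of a muscle-type isozyme to those of its widely expressed partner in each library, with KO left of WT and a bar for the mean with its SD (n = 4). For Eno3 to Eno1 the KO libraries other than KO3 lie between -1.07 and -0.75 and the WT libraries between -4.35 and -3.35.

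The other 2 ratios did not separate the labels. Hk2 to Hk1 had a log2 ratio of 1.59 ± 0.59 in KO and 1.51 ± 0.29 in WT, a difference of 0.09 ± 0.33 with an exact permutation p of 0.829. Ldha to Ldhb had 3.68 ± 0.65 in KO and 4.42 ± 0.40 in WT, a difference of -0.74 ± 0.38 with an exact permutation p of 0.114 (adjusted 0.152). Without KO4 the exact permutation p of Ldha to Ldhb was 0.0286. Ldha still made up 92.4 ± 2.81% of the lactate dehydrogenase reads in KO and 95.5 ± 1.19% in WT.

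Summed by enzyme, the labels overlapped in all 4 families that have more than 1 isozyme here. Phosphofructokinase genes summed to 193 ± 21.2 CPM in KO and 180 ± 19.3 CPM in WT, with an exact permutation p of 0.371. Enolase summed to 161 ± 30.8 CPM in KO and 141 ± 9.54 CPM in WT (exact permutation p of 0.314). Reads of the near copies of Eno1 are not in the enolase sum. Hexokinase summed to 179 ± 30.5 CPM in KO and 179 ± 15.8 CPM in WT (exact permutation p of 0.914), and lactate dehydrogenase to 419 ± 61.5 CPM in KO and 428 ± 53.1 CPM in WT (exact permutation p of 0.829).

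Near copies hold a large part of the reads that could belong to Eno1. Gm5506 had 358, 391, 400 and 376 reads in KO1 to KO4, against 427, 369, 441 and 369 in WT1 to WT4, more than Eno1 itself in every library, and Gm13699 had between 351 and 427. Eno1 made up between 25.6% and 32.4% of the sum of these 3 genes. The sum was 387 ± 11.3 CPM in KO and 427 ± 17.0 CPM in WT. How the authors' counting divided reads between Eno1 and its copies was not tested. With the reads of the copies added, the log2 fold change was -0.14 for Eno1 and 0.59 for Ldhb. Aldoa held between 70.9% and 73.6% of the reads of itself and its copies, and Ldha between 83.5% and 90.1%.

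By profile over the 8 libraries, the genes most like Eno3 were Rabep2, Des, Myom1, Ldb3 and Pygm, measured as the root mean square difference of mean-centred log2 CPM. These ran from 0.171 for Rabep2 to 0.356 for Pygm, where the median gene was at 1.27. Rabep2 overlaps Atp2a1, the calcium pump gene of fast muscle, in the annotation. Des (desmin), Myom1 (myomesin) and Ldb3 build the sarcomere and its links, and Pygm is the muscle glycogen phosphorylase. Nearest to Pfkm were Mb, at 0.167, and Tpm1, Pde4dip, Usp13 and Mllt11, up to 0.236, beside a median gene at 0.674. Mb encodes myoglobin and Tpm1 a tropomyosin. Nearest to Hk2 were Parp9, Fam179b, Itgav, Arl6 and Appl1, between 0.0872 and 0.112, with the median gene at 0.347. The likeness rests on the same 8 libraries, whose muscle marker sums differ, and is a description.

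Of 14 further genes of glycolysis, 10 were tested and 0 passed in either direction, with a median log2 fold change of -0.03. Pgam2, the muscle phosphoglycerate mutase, had 89, 45, 13 and 63 reads in KO1 to KO4, against 6, 11, 10 and 10 reads in WT1 to WT4. KO3 was again the lowest KO library, and the log2 fold change was 2.43 ± 0.54 with an edgeR quasi-likelihood adjusted p of 0.905. Its wide partner Pgam1 stood at 73.7 ± 2.82 CPM in KO and 79.6 ± 8.45 CPM in WT. Eno2, the enolase of neurons, had 91 reads in KO1 and between 9 and 15 in the other 7 libraries, and KO1 also had the highest sum of nerve and Schwann cell markers, 598.5 CPM. The part of nerve RNA in the Eno2 values was not tested.

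Among 6 tested genes that set the level of fructose 2,6-bisphosphate or reverse the phosphofructokinase step, 0 passed in either direction and the median log2 fold change was 0.06. Pfkfb1, which makes and breaks down fructose 2,6-bisphosphate, had 151, 153, 134 and 107 reads in KO1 to KO4, against 83, 81, 123 and 113 in WT1 to WT4, a log2 fold change of 0.39 ± 0.16. Fbp1, the fructose bisphosphatase of liver and kidney, was at -1.91 ± 0.87 with 3, 22, 9 and 4 reads in KO1 to KO4, against 80, 14, 7 and 37 in WT1 to WT4. Liver markers summed to at most 473.7 CPM in KO libraries, against 1354, 203.8, 125.5 and 1177 CPM in WT1 to WT4, and WT1 and WT4 were the highest in both. The part of liver RNA in the Fbp1 values was not tested. Pfkfb4 was at -0.25 ± 0.16 and Fbp2, the muscle fructose bisphosphatase, at 0.48 ± 0.40. Of these 4, only the value of Fbp1 was below -1 and none was above 1 on the log2 scale.

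All 16 glycogen genes were tested, 0 passed in either direction, 11 were positive and the median log2 fold change was 0.16. Pygm had 247, 144, 36 and 276 reads in KO1 to KO4, against 31, 23, 64 and 12 in WT1 to WT4, with KO3 inside the WT range, and its log2 fold change was 2.38 ± 0.74. Gys1, the glycogen synthase of muscle and most other tissues, had 113 ± 11.5 CPM in KO and 90.5 ± 18.5 CPM in WT (0.32 ± 0.15 in log2 fold change). Phka2, a phosphorylase kinase subunit, stood at 0.25 ± 0.15 and Gbe1, the branching enzyme, at 0.27 ± 0.17.

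Of 14 tested genes of lactate and pyruvate handling, 0 passed in either direction, and their log2 fold changes kept between -0.27 and 0.33 with a median of -0.03. The smallest p values were those of Pdk2, a kinase that turns pyruvate dehydrogenase off, at 0.33 ± 0.23, Bsg, the partner of the lactate transporters, at -0.18 ± 0.13, and the phosphatases Pdp2, at 0.24 ± 0.20, and Pdp1, at 0.22 ± 0.19. In the authors' deposited table the adjusted p was below 0.05 for Pgam2, Eno2, Fbp1 and Pygm among the genes named from these lists.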

How the data were processed

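Subcutaneous fat of 8 C57BL/6J mice was sequenced as poly(A) RNA with a library kit that keeps no strand, per the labels' protocols. FastQC, Bowtie2, edgeR and the build mm9 are named, with no role, in the submitters' processing notes; the sources used here name no counter or annotation. Raw read counts, deposited by the authors per gene and library, are whole numbers. The authors' table of 1 comparison holds log2 fold changes, p-values and adjusted p-values, per the file headers. Groups come from the titles.

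Libraries held 2617755 to 2873457 reads and had a common dispersion of 0.0337 (a coefficient of variation between mice of 18.4%). Genes were tested with edgeR 4.0.16 (R 4.3.3) by the quasi-likelihood F test, robust, with TMM scaling, filterByExpr and Benjamini-Hochberg adjustment over 14556 genes at 0.05, and the code was tested on simulated data. An SE was taken as the log2 fold change divided by the square root of F. Ratios used reads with a pseudocount of 0.5 and were compared by exact two-sided permutation. Shared sequence was counted as 50-base strings of GENCODE M21 transcripts. No library was a copy of another of the same label (chi-square per gene at least 4.45).

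Named are the 10 isozymes, Prkd1, near copies, up to 4 genes with the smallest p of each list and the 5 nearest profiles of Eno3, Pfkm and Hk2. The isozymes and lists were chosen with earlier results of these data known. Alternatives were other scaling, filters, pseudocounts, DESeq2 1.42.0, limma-voom (limma 3.58.1), an exact test with a common dispersion, the replicate block, a muscle marker covariate and fits without each library in turn. KO3 as the only KO library, and the added reads of near copies, are alternatives chosen after seeing the data. A list of epithelial markers is not analysed here, and 1 gene that the naming rule picked is not reported here.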

Additional observations from a re-analysis of the deposited data

Results flagged for a closer look

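Among 28 groups of 4 values checked, 2 held a value whose gap to its nearest neighbour took more than 0.829 of the range of the group, where chance gives about 1 in 20. The log2 ratio of Eno3 to Eno1 in KO3 was -3.08, with the other KO libraries between -1.07 and -0.754. Hk2 in WT2 was 109 CPM, with the other WT libraries between 139 and 142 CPM.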

How the results depend on the processing

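The count of genes called depended on the test. It was 0 with edgeR's quasi-likelihood test, 36 with DESeq2 (32 higher and 4 lower in KO) and 436 with the exact test on a common dispersion (178 of them lower). Eno3 and Pfkm, 2 of the 10 isozymes, were called by DESeq2 and by the exact test. The exact test gave a log2 fold change of 2.31 for Eno3 (adjusted p of 1.16e-17) and 1.09 for Pfkm (adjusted p of 0.000105). To these digits they are the values of the authors' deposited table, where 436 genes were also below an adjusted p of 0.05. Leaving out 1 library at a time gave 0 to 50 genes (50 without KO3), of which 0 were lower, and 0 to 2 isozymes. Other scaling, filters, limma-voom and the covariate called 0. Of 190 alternatives of single isozymes, 172 kept direction and call, 6 passed where they had not, and 12 turned direction. Those that turned without leaving out a library were Hk2 with limma-voom (-0.0312), with the replicate block (-0.00351), with the muscle covariate (-0.222) and with KO3 as the only KO library (-0.355), Hk1 (0.107 and 0.115 under the last 2) and Aldoa (-0.245 and -0.212). The log2 ratio of Hk2 to Hk1 turned to -0.468 with KO3 as the only KO library. Eno3 to Eno1 was then 0.695, a value only, since 1 library against 4 cannot reach an exact permutation p of 0.05.

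With 1 library left out, the log2 fold change ranged from -0.16 to 0.0132 for Hk1, from -0.177 to 0.133 for Hk2, from -0.183 to 0.0122 for Ldha, from -0.334 to -0.13 for Pfkl, from -0.192 to -0.00299 for Pfkp, from 0.0109 to 0.213 for Aldoa, from -0.264 to -0.155 for Eno1, from 0.47 to 0.861 for Ldhb, from 2.07 to 2.63 for Eno3 and from 0.873 to 1.28 for Pfkm. The ratio difference ranged from 2.11 to 2.89 for Eno3 to Eno1 (exact permutation p of 0.0286 to 0.0571), from 0.939 to 1.45 for Pfkm, from -0.184 to 0.27 for Hk2 to Hk1 and from -1.04 to -0.537 for Ldha to Ldhb. Same-numbered libraries correlated between -0.291 and -0.144, which does not show a pairing of the mice and cannot exclude it. With the replicate block 0 genes were called, Eno3 was 2.16 and Pfkm 1.04, and the paired ratio difference of Eno3 to Eno1 was 2.34 with an exact sign-flip p of 0.125, the smallest it can give. The cause of these changes was not tested. Eno3 rested on as few as 16 reads in a library and Ldhb on 35, which limits how small a difference could be seen.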

Other observations

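Gapdh had between 55 and 105 reads in a library, 29.8 ± 7.47 CPM in KO and 27.3 ± 3.27 CPM in WT (SD, n = 4 each), a log2 fold change of 0.13 ± 0.19. Pfkfb3, the inducible producer of fructose 2,6-bisphosphate, had 818 ± 89.8 CPM in KO and 803 ± 139 CPM in WT, a log2 fold change of 0.03 ± 0.15. Both genes were singled out after their values were seen. Near copies were sought for the isozymes only. Whether reads of Gapdh were counted to other genes was not tested, so its CPM may not give its level in this fat.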
